A study of Homo sapiens with 38 samples.

Results

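Gene expression was compared between A375 human melanoma cells exposed for 24 h to 0.1 µM GSK436 (GSK2118436, dabrafenib) and the same cells given the DMSO vehicle. The members of the comparison were the arrays labelled with parental cells and 0.1 µM GSK436 without the second drug, GSK212, and the parental DMSO arrays, which came to 5 of the 38 arrays in the series: 2 with drug (replicates 2 and 3) and 3 with DMSO (replicates 1, 2 and 3). A375 is an established line whose growth is driven by an activated BRAF kinase, and every group was grown in medium with 10% serum. Other groups whose signals or changes are given stand only beside this comparison. They are parental cells given 1 µM GSK436 (2 arrays), 10 nM GSK212 (GSK1120212, the MEK inhibitor trametinib; 3 arrays) or 10 nM GSK212 together with 0.1 µM GSK436 (3 arrays), and the A375-derived GSK436-resistant clone 16R6-4 given DMSO (2 arrays) or 0.1 µM GSK436 (3 arrays), all for the same 24 h. The remaining parental groups had 30 nM GSK212 (2 arrays) or 10 nM GSK212 with 1 µM GSK436 (3 arrays), again for 24 h. The remaining resistant groups had 1 µM GSK436, 10 or 30 nM GSK212, or 10 nM GSK212 with 0.1 or 1 µM GSK436 (3 arrays each). All of these enter the RNA quality ratios and the fit that estimates the spread. The design covers 1 cell line and 1 resistant clone, and nothing in the labels says whether replicates were separate cultures, so that p-values measure only the spread between these samples, which may be technical.

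GSK436 blocks the RAF kinases, which phosphorylate MEK, which in turn phosphorylates ERK. Active ERK drives transcription of a small set of immediate and delayed targets, among them the phosphatases and Sprouty proteins that restrain the pathway, ETS and AP-1 transcription factors, and cyclin D1, which carries the signal into the cell cycle. In BRAF-driven melanoma cells the pathway is set high and its feedback inhibitors are abundant, and BRAF inhibition is known for lowering them.

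The values are MAS5 signals, a linear brightness per probe set, and were compared as log2 of the signal plus 2.8. Signals are therefore given per array, and differences as log2 fold changes with the standard error of a limma fit in which all 14 groups of the series share 1 estimate of spread. A gene was called where the adjusted p was under 0.05 and the absolute log2 fold change at least 1. The verbs rose and fell are used for such calls alone.

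RNA quality moved with the treatment, and its part in the results below was not tested. The actin 3'/5' ratio, taken between control probe sets at either end of the transcript and larger where RNA is shortened, was 6.65, 4.59 and 12.0 on the DMSO arrays (replicates 1 to 3) and 37.2 and 37.5 on the arrays with 0.1 µM GSK436 (replicates 2 and 3). For GAPDH the ratio was 1.31, 1.21 and 1.78 with DMSO and 5.27 and 3.17 with drug. Neither ratio overlapped between the groups, and an exact two-sided permutation test gave p = 0.10 for each, the smallest p that 2 arrays against 3 can give. Actin ratios above 20 were found on 15 of the 38 arrays, 9 of them parental, and GAPDH ratios above 3 on 4 arrays, 3 of them parental. Within the resistant clone given the same dose the actin ratio was 4.65, 17.8 and 37.4 on replicates 1 to 3. On replicates 2 and 3 of the parental cells given 0.1 µM GSK436 with 10 nM GSK212 it was 4.26 and 4.64, as low as with DMSO. Signals on those arrays are therefore set beside the results.

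**Figure D1:**
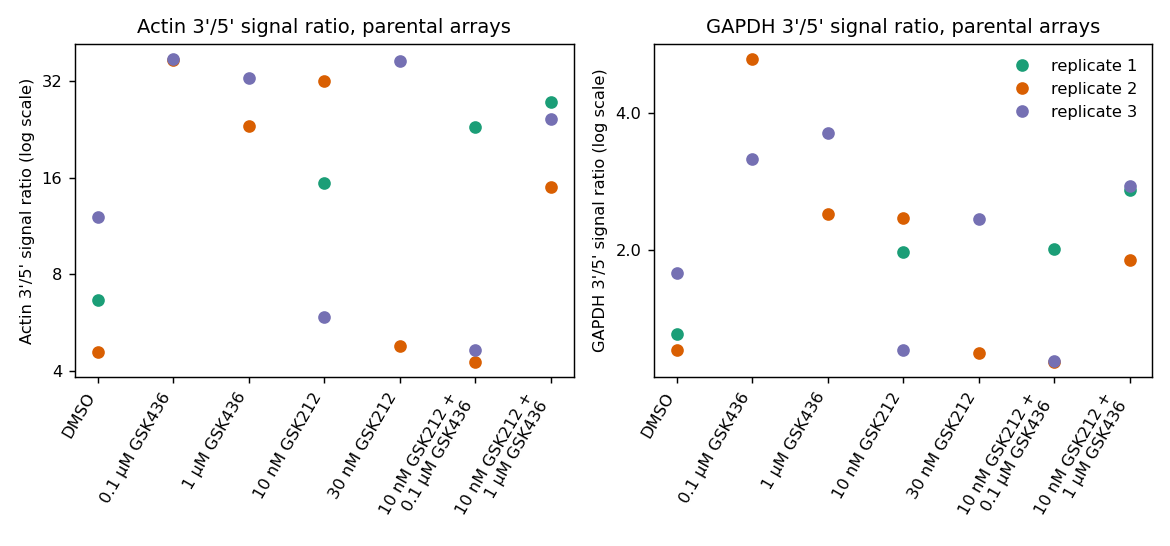
Ratio of the 3' to the 5' control probe set for actin (left) and GAPDH (right) on each of the 18 parental arrays, by treatment, on log axes; each point is 1 array and its colour gives the replicate number. Both arrays with 0.1 µM GSK436 have actin ratios of 37.2 and 37.5, above the 3 DMSO arrays at 4.59 to 12.0, while 2 arrays of the low-dose combination lie at 4.26 and 4.64.

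The overall level also moved with the treatment. The median signal of a DMSO array was 25.4, 26.9 and 31.3, against 52.4 and 49.4 with 0.1 µM GSK436, although the trimmed mean of every array lay between 149.84 and 149.96. Across the 18063 genes tested the median log2 fold change was 0.39 on the deposited scale and -0.43 once each array was centred on its median, a shift of -0.81 for every gene. The change also went with brightness. Genes whose mean signal lay under 34.88, the median of all values, had a median log2 fold change of 0.91, and genes over 500 had -0.20. Centring left these medians at 0.09 and -1.01. The shares called lower were 0.426% and 15.7%, and the shares called higher 7.97% and 6.78%. List medians below were not compared with genes of like brightness. Of all genes tested, 18.0% were called (3251), with 2081 higher (11.5%) and 1170 lower (6.48%). These shares are the background for all list counts on the deposited scale below. Centring gave 484 higher (2.68%) and 3979 lower calls (22.0%), quantile normalization gave 1323 and 1333, a fit with the log2 actin ratio as a covariate gave 889 (4.92%) and 602 (3.33%), and a fit with the log2 GAPDH ratio gave 683 and 529. The division between rising and falling genes thus depends on the scaling, and a positive change smaller than 0.81 on the log2 scale turns negative on the centred scale. Under all 4 of these settings the same direction was called for 246 higher and 274 lower genes. No gene called as deposited was called in the opposite direction by any of them. With 1 array left out in turn the total ranged from 1855, without treated replicate 2, to 3816.

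The genes that report ERK activity fell. Of the 14 measured members of an ERK output signature, 12 fell and 0 rose, beside the background of 6.48% lower among all genes, and the median log2 fold change of the list was -2.78 against 0.39 for all genes. The count was also 12 after centring, after quantile normalization and with the actin covariate. With the GAPDH covariate the member MYC lost its call. DUSP6, the cytoplasmic phosphatase that dephosphorylates ERK, had signals of 2343, 2277 and 2899 with DMSO and 74.2 and 86.3 with drug, and fell by 4.91 ± 0.64 on the log2 scale (limma adjusted p = 8.1e-07). This was the largest fall among called genes whose arrays did not overlap, and the lowest DMSO signal lay far above the highest treated one. The ETS factor ETV5 went from 585, 576 and 882 to 8.52 and 51.9 (-4.75 ± 0.64). SPRY2, a Sprouty inhibitor of receptor signalling, went from 830.4, 912 and 389.5 to 15.2 and 49.1 (-4.45 ± 0.81). CCND1, which encodes cyclin D1, went from 2522, 2411 and 4334 to 799.6 and 637 (-2.06 ± 0.33), so that a clearly measurable level remained on both treated arrays. FOSL1, the AP-1 subunit FRA1, went from 2853, 2504 and 4069 to 566 and 415 (-2.66 ± 0.33), and the pleckstrin homology-like gene PHLDA1 from 3693, 4186 and 2789 to 727 and 675 (-2.32 ± 0.28). The growth factor receptor EPHA2 went from 1879, 2029 and 1694 to 266 and 203 (-2.99 ± 0.54). MYC, the growth-promoting transcription factor, went from 266, 297 and 189 to 55.9 and 22 (-2.71 ± 0.69). Both other members were not called: the immediate early factor EGR1 had signals of 72.9, 81.2 and 108 with DMSO and 86.2 and 67 with drug, with a log2 fold change of -0.17 ± 0.67, and the receptor EPHA4 overlapped between the groups (0.73 ± 0.83). The call of MYC (-2.09 without treated replicate 3) was lost when 1 array was left out. After averaging probe sets, the change of ETV5 (-2.48) was over 1.5 times smaller but still called.

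**Figure D2:**
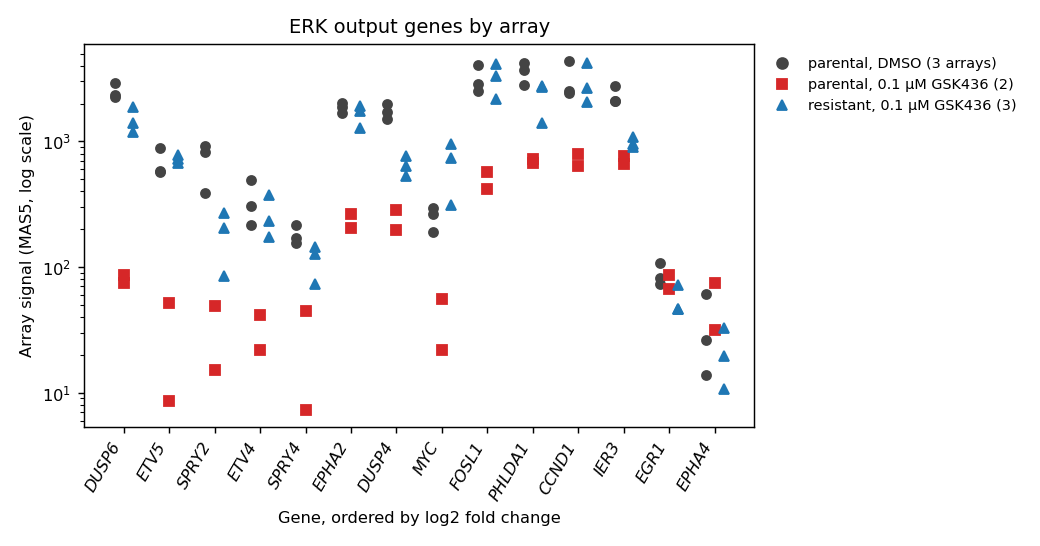
Signals of the 14 measured ERK output genes on a log axis, with 1 point per array for parental cells given DMSO (3) or 0.1 µM GSK436 (2) and for the resistant clone given 0.1 µM GSK436 (3). For the first 12 genes both treated parental arrays lie below all parental DMSO arrays; EGR1 and EPHA4 overlap.

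The same genes were read on arrays of low actin ratio. In parental cells given 0.1 µM GSK436 with 10 nM GSK212 (replicates 2 and 3), DUSP6 had signals of 0.82 and 21.5, ETV5 of 4.52 and 14.3, CCND1 of 245 and 286 and FOSL1 of 161 and 135, all below every DMSO array, although these cells also received the MEK inhibitor. In the resistant clone the third array with 0.1 µM GSK436 had an actin ratio of 37.4, as high as the parental treated arrays, and its signals were 1864 for DUSP6, 784 for ETV5 and 4177 for CCND1. SPRY2 behaved otherwise: across the 3 resistant arrays, at actin ratios of 4.65, 17.8 and 37.4, it had 267, 203 and 84.3, lowest where the ratio was highest.

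Many negative regulators of the pathway fell. Of 10 MAP kinase phosphatases, 6 fell and 2 rose as deposited; none of the rises was called after centring. DUSP4, which acts on nuclear ERK, went from 1710.5, 1519.9 and 1972 to 286 and 196 (-2.85 ± 0.34), and DUSP5, another nuclear phosphatase, from 314, 356 and 301 to 76 and 47.3 (-2.38 ± 0.28). DUSP7 fell by 1.30 ± 0.27, DUSP1 by 1.23 ± 0.38 and DUSP2 by 1.74 ± 0.65 on the log2 scale, and neither DUSP1 nor DUSP2 was called with the actin covariate. Of 8 Sprouty, SPRED and related feedback inhibitors, 5 fell and 0 rose, with a median of -1.95. SPRY4 went from 169.96, 215 and 155 to 7.34 and 44.9 (-3.04 ± 0.98), SPRED2, which blocks RAS-to-RAF signalling, from 474, 428 and 222 to 82.1 and 59.9 (-2.30 ± 0.40), and ERRFI1, which binds and inhibits EGFR, from 2398, 2567 and 1651 to 457 and 638 (-2.00 ± 0.32). SPRED1 fell by 1.89 ± 0.47 but was not called with the actin covariate, while SPRY1, SPRY3 and SPRED3 were not called. With 1 array left out, no call remained for DUSP1 (-1.06 without treated replicate 3), DUSP2 (-1.58 without DMSO replicate 1, -1.72 without DMSO replicate 2, -0.90 without treated replicate 3) and SPRY4 (-2.91 without DMSO replicate 2, -1.92 without treated replicate 2). With the probe sets of a gene averaged, the call of DUSP1 (-0.35) was lost.

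Among 10 ETS factors, the 3 members of the PEA3 group and ELK3 fell by their brightest probe sets. ETV1 went from 519, 485 and 485 to 34.4 and 23.8 (-3.99 ± 0.80), ETV4 from 304, 215 and 492 to 21.9 and 41.9 (-3.27 ± 0.69) and ELK3, a ternary complex factor, from 1552, 1602 and 1115 to 262 and 248 (-2.45 ± 0.25). The other 6, among them ETS1 (-0.06) and ETS2 (0.37), were not called. Of 12 AP-1 and EGR factors 3 fell and 1 rose. The small MAF factor MAFF fell from 957, 785 and 1176 to 125 and 92.5 (-3.12 ± 0.22, limma adjusted p = 2.7e-12), with little spread in either group, and IER3, an immediate early gene, from 2114, 2099 and 2763 to 665 and 769 (-1.69 ± 0.20). JUND, the AP-1 subunit linked to quiescence, rose from 962, 947 and 1604 to 4627 and 3502 (1.82 ± 0.32). Its call stayed after centring and with the actin covariate but was lost with the GAPDH covariate. For ETV1 and JUND the change rests on 1 called probe set of 5 and of 4. Averaged over all kept probe sets, the calls of ETV1 (-0.70) and JUND (0.37) were lost, and the change of ELK3 (-1.63) was over 1.5 times smaller but still called. The resistant array with an actin ratio of 37.4 also had a high JUND signal of 2916, against 1128 on the array with a ratio of 4.65. JUN (0.49), FOS (-0.82) and JUNB (-0.12) were not called, although another probe set of JUN was (1.08).

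The core of the pathway, with 13 measured genes, had 3 members higher and 1 lower. MAPK3, which encodes ERK1, rose from 166, 164 and 182 to 682 and 895 (2.18 ± 0.28, limma adjusted p = 7.0e-07) and kept its call after centring and with either ratio as a covariate. MAP2K2, encoding MEK2, went from 468, 505 and 783 to 1402 and 1602 (1.39 ± 0.34), and MAP2K1, encoding MEK1, from 796, 1012 and 409 to 207 and 238 (-1.63 ± 0.36). These opposite changes of the MEK genes were both lost with the actin covariate, and on the resistant arrays MAP2K1 was 755, 627 and 336 and MAP2K2 465, 632 and 957 as the actin ratio went from 4.65 to 37.4. The exchange factor SOS2 rose by 1.00 ± 0.31 on the log2 scale and lost its call after centring. Removal of 1 array ended the call of SOS2 (0.99 without treated replicate 2, 1.02 without treated replicate 3, 0.91 without DMSO replicate 3). As the mean of all probe sets, the calls of MAP2K2 (0.53) and SOS2 (0.79) were lost.

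Receptor tyrosine kinases changed in both directions, with 6 of 25 higher and 4 lower as deposited, and 3 higher and 5 lower after centring. The shares of all genes were 11.5% higher and 6.48% lower as deposited, and 2.68% and 22.0% after centring. FGFR3, a fibroblast growth factor receptor, rose from 36.5, 23.2 and 53 to 467 and 464 (3.61 ± 0.54). ERBB2 rose from 121, 133 and 229.6 to 573 and 582 (1.88 ± 0.29), and its partner ERBB3, the neuregulin receptor, from 291, 235 and 334 to 1017 and 1242 (1.98 ± 0.54), although ERBB3 lost its call after centring. IGF1R, the insulin-like growth factor receptor, went from 337, 261 and 296 to 1013 and 774 (1.57 ± 0.32) and also lost it. EGFR, in contrast, fell from 371, 290.3 and 396 to 164 and 155 (-1.12 ± 0.24), but its probe sets differ, and the mean over all of them changed by 0.18 with no call. MET, the receptor for hepatocyte growth factor, fell by 1.18 ± 0.29 and was not called after quantile normalization. AXL (-0.51), PDGFRB (-0.56) and INSR (1.14) were not called, although another probe set of INSR was (1.64). The calls of ERBB3, IGF1R and MET were lost with the actin covariate. On the low-ratio combination arrays FGFR3 stood at 361 and 347, ERBB2 at 408 and 407 and EGFR at 145 and 115, outside the DMSO range in the same direction. Loss of the call after removal of 1 array was found for ERBB3 (1.83 without treated replicate 3) and MET (-0.81 without treated replicate 2). After averaging probe sets, the calls of ERBB3 (0.71) and MET (-0.67) were lost, and the changes of FGFR3 (1.92) and ERBB2 (1.22) were over 1.5 times smaller but still called.

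Of 18 secreted growth factors and ERBB ligands, 6 fell and 3 rose. TGFA, an EGFR ligand, went from 1953, 2310.4 and 1499 to 369 and 249 (-2.63 ± 0.32), and HBEGF, another EGFR ligand, from 477, 553 and 526 to 105 and 136 (-2.09 ± 0.44). The angiogenic factors VEGFA and VEGFC fell by 1.73 ± 0.29 and 1.67 ± 0.23, and LIF by 1.67 ± 0.26 on the log2 scale. FGF2 went from 76.7, 82.1 and 17.2 to 3.37 and 1.69 (-3.28 ± 0.54), but the treated signals lie near the pseudocount, and with the pseudocount at the median of all values the fold change was -1.23. IGFBP5, which binds insulin-like growth factors, rose from 61.1, 71.7 and 88.8 to 646 and 672 (3.12 ± 0.71). It was the only riser of the list still called after centring. For VEGFA 1 of 4 probe sets was called. With the probe sets of a gene averaged, the call of VEGFA (-0.49) was lost, and the changes of FGF2 (-2.16) and HBEGF (-1.25) were over 1.5 times smaller but still called.

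Genes of DNA replication and nucleotide supply fell as a group: 16 of 27 fell and 0 rose, with a median log2 fold change of -1.21, and 13 fell with the actin covariate. MCM10, a DNA replication factor, went from 711, 645 and 578 to 126 and 104 (-2.46 ± 0.25). RRM2, the regulated subunit of ribonucleotide reductase, went from 7889, 7383 and 8386 to 2644 and 2259 (-1.69 ± 0.15, limma adjusted p = 2.9e-10), with each group tight. UHRF1, which keeps DNA methylation through replication, went from 3320.1, 3459.8 and 2192 to 722 and 764 (-1.98 ± 0.23), and the clamp loader subunit RFC3 from 1087, 1142 and 768 to 256 and 252 (-1.94 ± 0.23). PCNA, the sliding clamp, fell by 1.36 ± 0.23 and TYMS, thymidylate synthase, by 1.25 ± 0.22, neither of them called with the actin covariate. MCM5 (-0.01), TK1 (0.29) and LIG1 (-0.21) were not called. E2F8, a repressor that is itself an E2F target, went from 98.5, 144 and 77.7 to 2.61 and 11.3 (-3.60 ± 0.59).

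Mitosis and spindle genes fell in 13 of 25 cases, with 0 higher and a median of -1.03, but only 5 of them were called with the actin covariate. CCNA2, cyclin A2, went from 1297, 1375 and 1059.8 to 514 and 481 (-1.31 ± 0.18) and kept its call. CDK1, the mitotic kinase, went from 2137, 2022 and 1332 to 511 and 377 (-2.02 ± 0.40), and MAD2L1, of the spindle checkpoint, from 2303, 2677 and 1412 to 625 and 425 (-1.99 ± 0.34). For both, the DMSO array with the highest actin ratio, replicate 3, had the lowest DMSO signal; the other DMSO arrays, at ratios of 6.65 and 4.59, had CDK1 at 2137 and 2022. On the resistant arrays CDK1 was 2396, 1694 and 716 from the lowest to the highest ratio, while RRM2 stayed at 7938, 8801 and 8191. On the low-ratio combination arrays CDK1 was 865 and 821, below all DMSO arrays but above both arrays with 0.1 µM GSK436 alone. KIF23 and KIF11, kinesins of the midzone and the spindle, fell by 1.74 ± 0.43 and 1.48 ± 0.29, and the checkpoint kinase BUB1B by 1.64 ± 0.31 on the log2 scale; KIF23 and BUB1B were not called with the covariate. PLK1 (-0.16), CDC20 (-0.13), TOP2A (-0.22) and CCNB2 (-0.36) were not called, although another probe set of TOP2A was (-1.61). Leaving out 1 array ended the call of KIF23 (-1.36 without treated replicate 2). Averaged over all kept probe sets, the change of KIF23 (-1.04) was over 1.5 times smaller but still called.

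**Figure D3:**
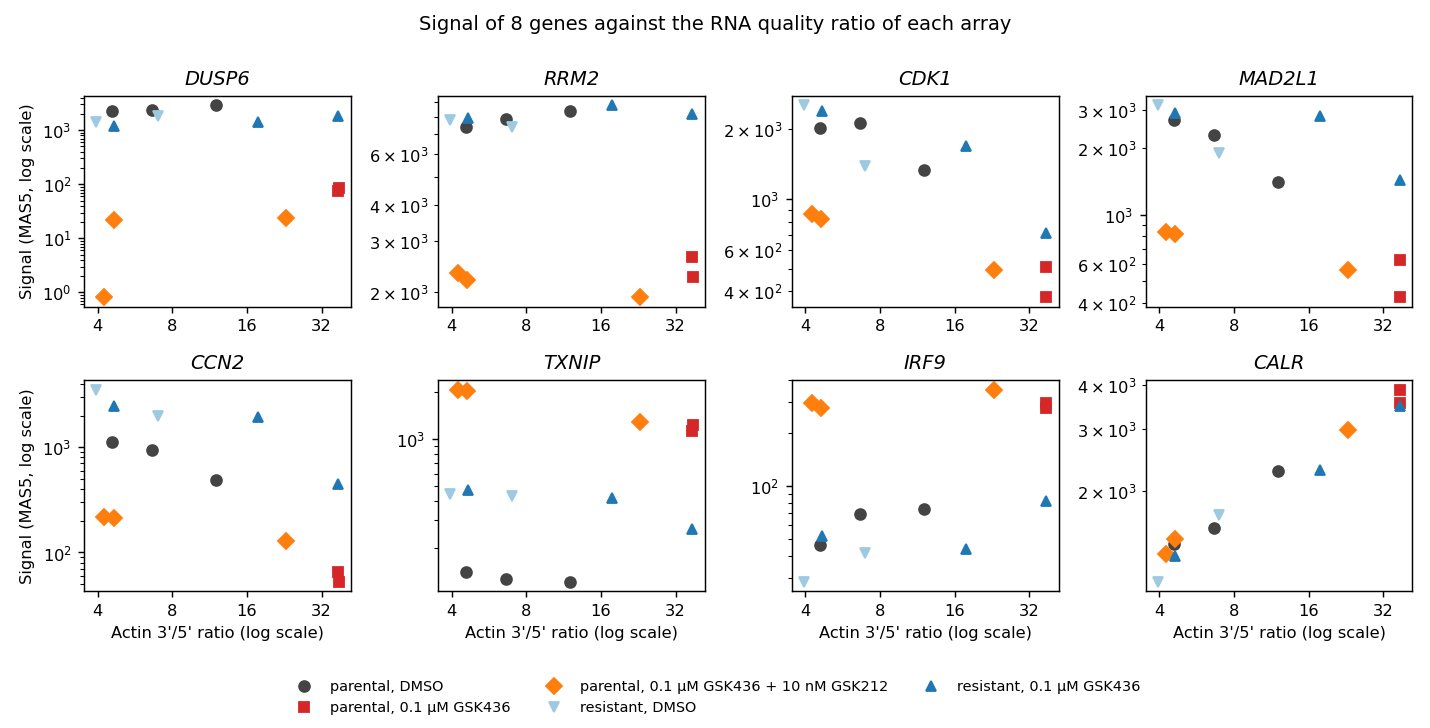
Signal of 8 genes (log axis) against the actin 3'/5' ratio of the array (log axis) for parental DMSO (3 arrays), parental 0.1 µM GSK436 (2), parental 0.1 µM GSK436 with 10 nM GSK212 (3), resistant DMSO (2) and resistant 0.1 µM GSK436 (3). DUSP6 and RRM2 are lower on the parental arrays given GSK436, alone or with GSK212, than on all others at any ratio, CDK1, MAD2L1 and CCN2 also decline with the ratio among resistant arrays, and CALR lies along 1 line for all groups.

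Promoters of cell cycle genes were read because so many of these genes moved together. The 250 bases before the start site (RefSeq, GRCh38.p14, first listed start of each gene) were searched on both strands for TTTGAA, the core of the cell cycle homology region, for CCAAT, the box of the NF-Y factor, and for TTTNGCGC, an E2F site. They are printed 5' to 3' on the gene's strand for both kinesins, which fell, for PLK1, which was not called and holds the same pair of motifs, and for POLE2, a subunit of DNA polymerase epsilon that fell. Capitals mark the motif letters on either strand.
KIF23 (chr15:69414099-69414348, plus strand): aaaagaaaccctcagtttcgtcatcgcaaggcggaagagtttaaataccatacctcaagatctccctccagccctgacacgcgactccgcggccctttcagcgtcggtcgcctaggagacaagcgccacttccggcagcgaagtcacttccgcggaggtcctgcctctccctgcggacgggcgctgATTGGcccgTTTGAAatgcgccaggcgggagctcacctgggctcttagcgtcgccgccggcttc
KIF11 (chr10:92592880-92593129, plus strand): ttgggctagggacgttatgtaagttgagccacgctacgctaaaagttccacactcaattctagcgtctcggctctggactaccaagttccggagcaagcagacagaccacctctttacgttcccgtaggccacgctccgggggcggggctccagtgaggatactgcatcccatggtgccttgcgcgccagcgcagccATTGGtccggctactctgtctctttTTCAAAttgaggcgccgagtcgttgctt
PLK1 (chr16:23678639-23678888, plus strand): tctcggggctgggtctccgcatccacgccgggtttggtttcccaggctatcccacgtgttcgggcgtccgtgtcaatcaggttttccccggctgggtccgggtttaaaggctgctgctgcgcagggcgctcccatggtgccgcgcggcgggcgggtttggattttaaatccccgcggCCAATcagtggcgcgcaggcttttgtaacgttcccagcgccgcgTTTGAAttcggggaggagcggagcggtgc
POLE2 (chr14:49688215-49688464, minus strand): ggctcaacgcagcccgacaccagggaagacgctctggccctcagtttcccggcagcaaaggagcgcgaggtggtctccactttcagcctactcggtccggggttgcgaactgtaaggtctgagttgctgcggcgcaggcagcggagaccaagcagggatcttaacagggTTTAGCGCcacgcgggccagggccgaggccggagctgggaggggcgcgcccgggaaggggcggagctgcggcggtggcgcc
In KIF23, KIF11 and PLK1 the box on the left is CCAAT or its complement and that on the right is TTTGAA or its complement, the latter beginning 55, 28 and 29 bases before the start site. Of 20 mitosis genes with a promoter in the table, 9 held TTTGAA, as did 13.6% of all 27195 promoters, and 15 held CCAAT, as did 33.0% of all. Of the 13 mitosis genes that fell, 5 held TTTGAA and 10 CCAAT. The E2F letters were in 5 of 25 replication promoters and in 1.54% of all, and POLE2 was the 1 called gene among them. For the ERK output list, 7 promoters were in the table and none held TGANTCA, an AP-1 site, or CCGGAAGT, an ETS site, which occurred in 6.55% and 3.65% of all promoters of the same length.

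In G1 control, 7 of 20 genes fell and 2 rose. CCNE2, cyclin E2, went from 609.8, 583 and 481 to 154 and 116 (-2.03 ± 0.27), and CCND3, cyclin D3, from 745, 718 and 926 to 377 and 342 (-1.13 ± 0.21). CDK2 and CDK6 fell by 1.05 ± 0.17 and 1.07 ± 0.25, and the retinoblastoma gene RB1 by 1.12 ± 0.28 on the log2 scale; none of these 3 was called with the actin covariate. CDKN1C, the CDK inhibitor p57, rose from 92.1, 96.1 and 109 to 389 and 422 (2.01 ± 0.76, limma adjusted p = 0.048), close to the threshold and without a call after centring. The inhibitor CDKN1B (p27), whose protein is often described as rising when BRAF is blocked, had a log2 fold change of -0.32 ± 0.37 and CDKN1A (p21) of 0.73 ± 0.18, neither called. The calls of CDK2 (-0.97 without DMSO replicate 2), CDK6 (-0.98 without DMSO replicate 1, -0.90 without treated replicate 2) and CDKN1C (1.96 without DMSO replicate 1, 1.99 without DMSO replicate 2, 2.07 without treated replicate 2, 1.95 without treated replicate 3, 2.08 without DMSO replicate 3) were lost when 1 array was left out. As the mean of all probe sets, the calls of CCND3 (-0.42) and RB1 (-0.62) were lost.

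Ribosome biogenesis genes fell in 6 of 20 cases and rose in 0, with a median of -0.78. DDX21, a nucleolar helicase, went from 5148, 5245 and 3859.9 to 1409.8 and 2067 (-1.46 ± 0.24), and RRS1, an assembly factor of the large subunit, from 1330.4, 1669.8 and 963 to 245 and 435 (-1.97 ± 0.32). The MYC network had 1 further call, MNT, a MAX partner that opposes MYC, which rose from 249, 257 and 347 to 833 and 917 (1.63 ± 0.30) and lost its call after centring.

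Genes that restrain growth rose in 5 of 17 cases and fell in 1, and 2 of the rises held after centring. TXNIP, which restrains glucose uptake, went from 126, 139 and 120.5 to 1121 and 1239 (3.17 ± 0.24, limma adjusted p = 1.9e-11), and on the low-ratio combination arrays stood at 2079 and 2044. The resistant arrays had 468, 419 and 263, lowest at the highest actin ratio. KLF9, a zinc finger factor of quiescence and hormone response, went from 102, 97.1 and 124 to 587 and 615 (2.46 ± 0.28). BTG3, an antiproliferative gene of the BTG family, fell from 896, 1001 and 564 to 209 and 235 (-1.83 ± 0.30), against the direction of the list's name, and the mean over all its probe sets changed by 0.075 with no call. After averaging probe sets, the change of KLF9 (1.03) was over 1.5 times smaller but still called.

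Cell death genes moved individually. Among 9 BH3-only genes 3 rose and 1 fell as deposited, beside 11.5% and 6.48% of all genes. After centring 1 was higher and 3 were lower, beside 2.68% and 22.0%. The 1 still higher was BMF, which rose from 24.1, 3.94 and 32.3 to 259.9 and 281 (3.88 ± 0.70). It encodes a BH3 protein that is released from the cytoskeleton under stress. PMAIP1, encoding NOXA, fell from 826, 847 and 979.5 to 208 and 128 (-2.41 ± 0.24, limma adjusted p = 6.3e-09). MCL1, the survival protein that NOXA binds, fell from 3141, 3046 and 3659 to 1530.3 and 1187 (-1.28 ± 0.14), the 1 call among 8 genes of the BCL2 family. BCL2L11, encoding BIM, had a log2 fold change of 0.68 ± 0.25 and was not called, although another probe set was (1.38). Of 15 p53 target genes 4 rose and 0 fell as deposited, while centring left 1 higher and 5 lower: TP53INP1 rose from 37.1, 45 and 13.6 to 255 and 203 (2.87 ± 0.46) and TP53I3 from 493, 475 and 594 to 1324 and 1683 (1.52 ± 0.16), whereas CDKN1A and MDM2 (-0.17) were not called, although another probe set of MDM2 was (1.17). TP53I3 was not called after centring. On the centred scale 2.68% of all genes were higher and 22.0% lower.

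The melanoma label held by some lineage markers and not by others. SOX10 (560.1, 427 and 601 with DMSO), MITF (343, 465 and 283), MIA (1459, 1393 and 1983) and PRAME (655, 644 and 617) were bright, while the pigment genes PMEL (3.86, 26.2 and 21.5), MLANA (19.8, 33.2 and 33.1), TYR (10.9, 15.8 and 50.2) and TYRP1 (10.3, 7.21 and 4.84) lay near the low end of the signal scale in these cells. With 0.1 µM GSK436, 0 of 17 melanocyte and pigment genes rose and 3 fell, beside 11.5% and 6.48% of all genes. Of the 13 measured markers of melanoma and melanocyte lineage 2 rose, S100B (2.14 ± 0.76) and CSPG4 (1.13 ± 0.37), and 0 fell. After centring 0 of the 13 were higher and 1 was lower, beside 2.68% and 22.0% of all genes. The shares of the lists called as deposited, 17.6% and 15.4%, were near the 18.0% of all genes. Neither S100B nor CSPG4 was called with the actin covariate, and CSPG4 changed by -0.15 with the GAPDH covariate, not called. With 1 array left out, no call remained for S100B (2.38 without treated replicate 2, 1.91 without treated replicate 3, 1.39 without DMSO replicate 3) and CSPG4 (1.10 without DMSO replicate 1, 0.96 without DMSO replicate 2, 0.95 without treated replicate 2). MITF, the lineage factor, had 439 and 422 with drug, a log2 fold change of 0.27 ± 0.22, and the pigment genes were not called in either direction. PPARGC1A, a mitochondrial coactivator that MITF controls, fell from 22.9, 18.8 and 34.2 to 6.67 and 2.18 (-2.00 ± 0.67), a change of -0.61 with the larger pseudocount. Its mean over all probe sets changed by 0.20 with no call. MLPH, which links melanosomes to myosin, fell from 490.4, 458 and 744 to 246 and 157 (-1.47 ± 0.32). Removal of 1 array ended the call of PPARGC1A (-2.04 without DMSO replicate 1, -1.53 without treated replicate 3, -1.78 without DMSO replicate 3).

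Neural crest and dedifferentiation genes were mixed, with 6 of 20 higher and 3 lower as deposited and 2 higher and 5 lower after centring. Beside them stand 11.5% higher and 6.48% lower of all genes as deposited, and 2.68% and 22.0% after centring. SOX2, a stem cell factor, rose from 70.0, 87.7 and 80.8 to 389 and 300.1 (2.07 ± 0.28) and SNAI2 from 10.1, 23.8 and 28.7 to 112 and 75.2 (2.10 ± 0.35). ZEB1 fell from 576, 515 and 419.98 to 92.3 and 103 (-2.32 ± 0.28), while ZEB2 rose from 32.4, 51.9 and 39.5 to 159 and 92.8 (1.52 ± 0.39, not called after centring). Those 4 encode repressors or factors used in the neural crest, and on the low-ratio combination arrays SOX2 stood at 1069 and 1109 and ZEB1 at 146 and 132. WNT5A fell by 1.41 ± 0.39 on the log2 scale, and NGFR (0.74) and AXL were not called. Neither ZEB2 nor WNT5A was called with the actin covariate. Loss of the call after removal of 1 array was found for ZEB2 (1.14 without treated replicate 2) and WNT5A (-0.998 without treated replicate 3). With the probe sets of a gene averaged, the change of ZEB1 (-1.55) was over 1.5 times smaller but still called.

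Interferon-stimulated genes rose in 10 of 25 cases with 0 lower, and the median was 1.06. After centring 3 were higher and 3 lower, beside 2.68% and 22.0% of all genes. With the actin covariate 9 were higher and 0 lower, beside 4.92% and 3.33%. IRF9, the DNA-binding part of the complex that interferon activates, rose from 69, 46.1 and 73.5 to 277 and 298 (2.17 ± 0.29), and IFI35 from 149.99, 173 and 252 to 738 and 748 (1.98 ± 0.21). IFITM1, a membrane protein that blocks virus entry, rose from 36.4, 23.4 and 52.8 to 238 and 148 (2.31 ± 0.45). These 3 kept their calls after centring, but IFITM1 lost its call with the GAPDH covariate. ISG15, a ubiquitin-like modifier, rose by 1.40 ± 0.20 but was not called after centring. Its neighbours in the response, IFIT1 (1.74), IFI44 (-0.49), OAS1 (1.14) and MX2 (0.39), were not called. The interferon-stimulated response element, searched as a repeated GAAA with 2 free bases between the repeats, was in 13 of 19 promoters of the list, against 3.07% of all, and in 4 of the 7 that rose and had a promoter in the table. The promoter of IFITM1 is shown with its element in capitals.
IFITM1 (chr11:313790-314039, plus strand): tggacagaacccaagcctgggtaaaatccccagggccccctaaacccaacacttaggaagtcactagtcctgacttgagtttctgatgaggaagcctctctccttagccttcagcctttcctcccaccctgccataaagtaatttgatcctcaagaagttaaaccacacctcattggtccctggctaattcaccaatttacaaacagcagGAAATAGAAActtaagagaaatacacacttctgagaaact
In antigen presentation, 3 of 15 class I genes rose and 1 fell as deposited, beside 11.5% and 6.48% of all genes. B2M (-0.18) was not called, and TAP2, a peptide transporter subunit, fell by 1.54 ± 0.35. Averaged over all kept probe sets, the call of TAP2 (-0.71) was lost.

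Chemokines and inflammatory cytokines fell in 5 of 18 cases and rose in 0. CXCL8, the neutrophil attractant interleukin 8, went from 555, 635 and 284 to 40.7 and 3.06 (-4.87 ± 0.89), with -3.23 at the larger pseudocount. CXCL1 went from 568, 554 and 405 to 76.8 and 54.7 (-2.90 ± 0.27) and IL24 from 408, 387 and 522 to 66.9 and 70.1 (-2.62 ± 0.38). PTX3, a soluble pattern recognition protein outside the list, fell from 1759, 1909.5 and 1337 to 96.7 and 109.95 (-3.96 ± 0.22, limma adjusted p = 1.4e-14), with no overlap and a narrow spread.

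Lysosome and autophagy genes rose in 9 of 22 cases as deposited, beside 11.5% of all genes. After centring 1 was higher and 5 were lower, beside 2.68% and 22.0% of all genes. With the actin covariate 4 were higher, beside 4.92%. TFEB, the master factor of lysosomal genes, went from 32.8, 10.1 and 53.7 to 157 and 186 (2.55 ± 0.71). Cathepsin A (CTSA) went from 550.4, 606 and 839.8 to 1545 and 1717 (1.31 ± 0.22), and the membrane protein LAMP1 from 3551, 3143 and 5182 to 9189 and 7548 (1.11 ± 0.26). LAMP1 was also high, at 8045, on the resistant array with an actin ratio of 37.4, and the low-ratio combination arrays had 4318 and 4078, within the DMSO range. CTSA had 1516 and 1356 there, above it. CTSA and LAMP1 were not called after centring, nor TFEB and LAMP1 with the actin covariate. Leaving out 1 array ended the calls of TFEB (1.95 without DMSO replicate 2, 2.43 without treated replicate 3) and LAMP1 (0.96 without DMSO replicate 2, 0.96 without treated replicate 2). As the mean of all probe sets, the call of LAMP1 (0.55) was lost.

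Matrix, integrin and YAP-linked genes changed both ways, with 5 of 25 higher and 9 lower as deposited and 3 higher and 11 lower after centring. All genes had 11.5% higher and 6.48% lower as deposited, and 2.68% and 22.0% after centring. The secreted CCN proteins, known targets of YAP, fell: CCN2 from 931, 1114 and 489 to 65.6 and 52.8 (-3.70 ± 0.51) and CCN1 from 1836, 2028 and 1362 to 343 and 309.6 (-2.39 ± 0.28). CCN2 too was lower at higher actin ratios, with 2454, 1936 and 443 on the resistant arrays, and 218 and 211 on the low-ratio combination arrays, below the DMSO range. The transmembrane collagen COL13A1 fell from 1161, 1047 and 1199.5 to 39.7 and 61.2 (-4.45 ± 0.61) and the laminin receptor ITGA6 from 1315, 1283 and 743 to 279 and 310.4 (-1.86 ± 0.30). ITGB1, the shared integrin beta subunit, fell by 1.33 ± 0.34, but stood at 3663 and 3896 on the low-ratio combination arrays, within the DMSO range of 3534, 4024 and 2498. COL1A1 rose from 34.5, 35.8 and 71.8 to 256 and 166 (2.14 ± 0.42). Of 14 protease genes 2 rose and 3 fell, beside 11.5% and 6.48% of all genes. PLAUR, the urokinase receptor, fell from 822, 894 and 819 to 273 and 221 (-1.77 ± 0.19) and MMP3 rose from 43, 64.9 and 44.8 to 284 and 155 (2.01 ± 0.32). The actin covariate ended the call of ITGB1. The call of ITGB1 (-0.87 without treated replicate 2) was lost when 1 array was left out. After averaging probe sets, the call of ITGB1 (-0.98) was lost, and the change of COL13A1 (-2.62) was over 1.5 times smaller but still called.

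Activin and BMP genes changed in both directions. FST, follistatin, which traps activin, fell from 2222, 2062 and 2513 to 189 and 145 (-3.75 ± 0.27, limma adjusted p = 3.0e-12), and INHBA, the activin A subunit, from 2177, 2161 and 2068 to 661 and 564 (-1.80 ± 0.15). ID2, an inhibitor of bHLH factors and a BMP target, rose from 84.5, 93.8 and 86.4 to 569 and 693 (2.79 ± 0.26), and BAMBI, a pseudoreceptor that dampens TGF-beta, from 94.6, 93.7 and 60.8 to 282 and 498 (2.16 ± 0.29). All 4 kept their calls after centring and with the actin covariate, and on the low-ratio combination arrays ID2 reached 1232 and 1353 and FST 108 and 136. In the list of 19, 6 rose and 3 fell as deposited, beside 11.5% and 6.48% of all genes. After centring 2 were higher and 4 lower, beside 2.68% and 22.0%. With the probe sets of a gene averaged, the change of INHBA (-1.20) was over 1.5 times smaller but still called.

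Metabolic lists differed in their calls. Of all genes tested, 18.0% were called as deposited. None of 18 respiratory chain genes was called by limma (8 had an unadjusted p under 0.05), and none was called in the fits with quantile normalization or the actin covariate; centring called 1 lower. In glycolysis, 4 of 24 rose and 2 fell, beside 11.5% and 6.48% of all genes. After centring 1 was higher and 10 lower, beside 2.68% and 22.0%. Of the rises as deposited 1 is GAPDH, which stands for its brightest probe set, the 3' control of the quality ratio, and is no separate measurement. HK2, the inducible hexokinase, fell from 1069, 937 and 728 to 291 and 329 (-1.53 ± 0.22), while ALDOC, a brain-type aldolase, rose from 91, 93.3 and 188 to 507 and 522 (2.11 ± 0.25). In cholesterol and fatty acid synthesis the 1 call of 14 was the sterol factor SREBF1, which rose from 133, 114 and 98 to 279.9 and 384 and lost its call on centring. Of 14 antioxidant genes 2 rose and 3 fell (35.7% called), beside 11.5% and 6.48% of all genes. After centring 0 were higher and 10 lower, beside 2.68% and 22.0%. HMOX1, heme oxygenase, rose by 1.56 ± 0.20 and GCLM, of glutathione synthesis, fell by 2.05 ± 0.45 on the log2 scale, the former without a call after centring. Of 15 chaperones of the endoplasmic reticulum, CALR alone was called, from 1565, 1409 and 2269 to 3874 and 3544 (1.11 ± 0.40). With the actin covariate its change was 0.15 and not called, and the low-ratio combination arrays had 1318 and 1452, near the DMSO arrays; with the GAPDH covariate the change was -0.41. With 1 array left out, no call remained for CALR (1.05 without DMSO replicate 1, 0.97 without DMSO replicate 2, 1.05 without treated replicate 2, 1.18 without treated replicate 3). Averaged over all kept probe sets, the call of CALR (0.47) was lost.

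Several of the largest rises were in genes close to silent with DMSO. Dim genes as a class had a higher median change than bright ones, and the part of this in the rises was not tested. MGP, matrix Gla protein, an inhibitor of calcification, went from 1.33, 2.01 and 1.38 to 956 and 1302 (8.00 ± 0.54, limma adjusted p = 1.3e-12). SLC2A12, a glucose transporter, went from 4.92, 4.41 and 6.86 to 531 and 501 (5.99 ± 0.49), and the alkaline phosphatase ALPP from 1.02, 1.48 and 1.39 to 107 and 159 (5.03 ± 0.34). Such fold changes depend on the pseudocount, and with it at the median of all values they were 4.98, 3.77 and 2.20, all still called. AQP3, a water and glycerol channel, was not close to silent and went from 46.1, 31.5 and 51.7 to 943 and 932 (4.38 ± 0.33). DIO2, the enzyme that activates thyroid hormone, went from 15.4, 12.5 and 13.3 to 377 and 185 (4.02 ± 0.23). The transcriptional coactivator CITED1, from 1.4, 1.65 and 4.2 to 87 and 107 (4.29 ± 0.76), and the epithelial sodium channel subunit SCNN1A, from 1.43, 2 and 5.73 to 101 and 154 (4.52 ± 0.79), were close to silent with DMSO, like MGP. On the resistant array with an actin ratio of 37.4 given the same dose, MGP was at 3.49, SLC2A12 at 15 and AQP3 at 45.4, near the parental DMSO signals. The low-ratio combination arrays had MGP at 2226 and 2205. As the mean of all probe sets, the changes of MGP (4.89), AQP3 (2.34) and SCNN1A (1.92) were over 1.5 times smaller but still called.

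Large changes were also found at genes that lie outside the lists. ACOX2, a peroxisomal oxidase of branched fatty acids and bile acid precursors, fell from 526, 575 and 399 to 11.7 and 49.5 (-4.17 ± 0.49). TMEM158, first described as a gene induced by RAS, fell from 592, 665 and 473 to 92.5 and 22.6 (-3.54 ± 0.40), and the neuronal adhesion gene NTM from 578, 588 and 499.6 to 34.3 and 60.5 (-3.52 ± 0.29). These 3 were bright with DMSO, with signals well above the dim end of the scale. In the other direction MAP2, a neuronal microtubule protein, went from 16.8, 8.59 and 3.79 to 302 and 287 (4.71 ± 0.63) and S100P, a calcium-binding protein, from 3.24, 22.5 and 8.56 to 357 and 304 (4.79 ± 0.71). AQP4, a water channel of glia, went from 19.2, 14.3 and 23.5 to 322 and 352 (3.98 ± 0.74), beside the rise of its relative AQP3. On the low-ratio combination arrays ACOX2 had 71.5 and 78.5, TMEM158 40.5 and 55.2, MAP2 183 and 180.1 and AQP4 442 and 469, outside the DMSO range in the direction of the change with GSK436 alone. Of the 3 probe sets of NTM 1 was called. After averaging probe sets, the call of NTM (-0.99) was lost.

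Markers of other cell types were checked over whole lists. Of 15 keratinocyte and epithelial markers 5 rose and 0 fell as deposited, beside 11.5% and 6.48% of all genes. After centring 4 were higher and 2 lower, beside 2.68% and 22.0%. Keratin 14 (KRT14) went from 129, 125 and 190.3 to 2619.8 and 2138 (4.00 ± 0.67), KRT13 from 0.85, 4.54 and 0.65 to 180.2 and 59.1 (4.56 ± 0.80), and the surface glycoprotein CD24 from 56.1, 63.7 and 79.8 to 737 and 797 (3.49 ± 0.19, limma adjusted p = 1.4e-14). CDH1, E-cadherin (-0.43), and EPCAM (1.05) were not called. The summed signal of the list was 6430.5 to 10015 with DMSO and 9256 to 10548 with drug. Leukocyte markers summed to 108 to 219 with DMSO and 249 to 389 with drug, endothelial markers to 77.9 to 151 and 162 to 235. The median signal of a whole array likewise went from 25.4 to 31.3 with DMSO to 49.4 to 52.4 with drug. Of 8 leukocyte markers 1 rose and 0 fell, beside 11.5% and 6.48% of all genes. Of 6 endothelial markers 0 were called by limma, and 1 had an unadjusted p under 0.05. Of 8 fibroblast markers LUM rose from 5.55, 17.2 and 1.14 to 59.5 and 89.4 (3.12 ± 0.48) and COL6A3 fell. The shares of all genes were 11.5% higher and 6.48% lower. With the probe sets of a gene averaged, the change of LUM (1.88) was over 1.5 times smaller but still called. Removal of 1 array ended the call of COL6A3 (-0.91 without treated replicate 3). The part of other cell types in these results was not tested.

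**Figure D4:**
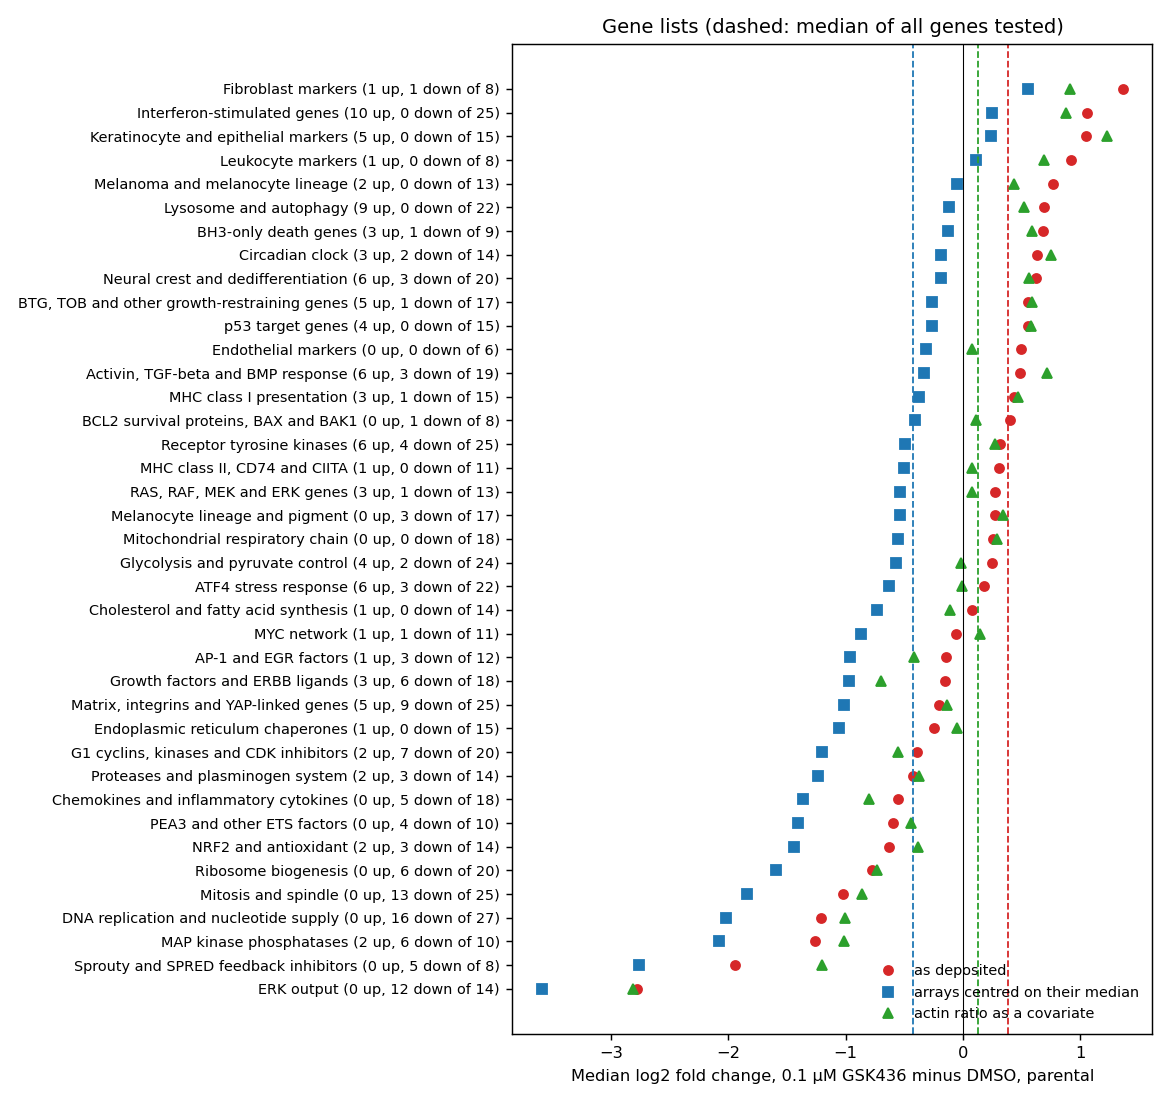
Median log2 fold change of each gene list with 0.1 µM GSK436 against DMSO in parental cells, on the deposited scale (circles), after centring each array on its median (squares) and with the log2 actin ratio as a covariate (triangles); dashed lines are the medians of all 18063 genes and the counts give called genes on the deposited scale. ERK output lies lowest under all 3 settings, at -2.78, -3.59 and -2.81.

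Probe sets of a gene often differed. Of 1905 called genes with at least 2 kept probe sets, 576 had another probe set called in the same direction, 1329 had none and 34 had one called in the opposite direction, with p-values adjusted over all probe sets. Of 716 genes with at least 2 called probe sets, 664 had all of them in 1 direction and 52 had called probe sets in opposite directions, among them BTN2A1, DDX3X, PPARA, RIOX2 and SLC25A37. For such genes the value given by the brightest probe set is uncertain. DDX3X, an RNA helicase, fell by 1.46 ± 0.32 by its brightest probe set and changed by 0.089 as the mean over all.

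The higher dose was compared over the same genes. This comparison and those that follow share the 0.1 µM arrays with the one above. Between 1 µM and 0.1 µM GSK436, 45 genes were called (0.249% of those tested), 35 higher (0.194%) and 10 lower (0.0554%) at the higher dose, and the actin ratios of the 1 µM arrays were 23.3 and 32.6. The ATF4 response is the program that cells use when amino acids or protein folding fail. Of its 22 genes, 6 rose and 3 fell at 0.1 µM against DMSO (40.9% called), beside 11.5% and 6.48% of all genes. After centring 3 were higher and 6 lower, beside 2.68% and 22.0%. Between the doses 11 were higher at 1 µM and 0 lower. ASNS, asparagine synthetase, had 651, 559.6 and 683 with DMSO, 521 and 661 at 0.1 µM and 5297 and 5230.5 at 1 µM. With the lower dose its log2 fold change was -0.10 ± 0.15, not called, and it rose by 3.16 ± 0.17 from 0.1 to 1 µM (limma adjusted p = 5.8e-15). PHGDH, the entry to serine synthesis, was 901 and 901 at 0.1 µM and 4409.7 and 4984 at 1 µM (2.38 ± 0.24). PSAT1 of the same pathway fell at 0.1 µM (-1.09 ± 0.21) and was 2.16 ± 0.23 higher at 1 µM than at 0.1 µM, as was MTHFD2 of folate metabolism (-1.39 ± 0.17 and 1.57 ± 0.19). NUPR1, a stress-induced nuclear protein, rose at 0.1 µM from 21.1, 30.5 and 46.5 to 229 and 311 (2.99 ± 0.24) and reached 1726 and 1899 at 1 µM (2.75 ± 0.26 above 0.1 µM). DDIT3, encoding CHOP, was likewise higher at each step (1.24 ± 0.20 and 1.34 ± 0.22), although the first step was not called after centring (0.43). PSAT1 was not called at 0.1 µM with the actin covariate. None of the 14 ERK output genes was called by limma between the doses (3 had an unadjusted p under 0.05), where their median difference was -0.06; DUSP6 had 86.2 and 83.5 at 1 µM. The count of 45 was 109 without 1 µM replicate 2 and 23 in a fit of these groups alone. PSAT1 and MTHFD2 lost their dose calls as the mean of all probe sets (1.84 and 1.07). Loss of the call after removal of 1 array was found for PSAT1 (-0.99 without DMSO replicate 2).

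**Figure D5:**
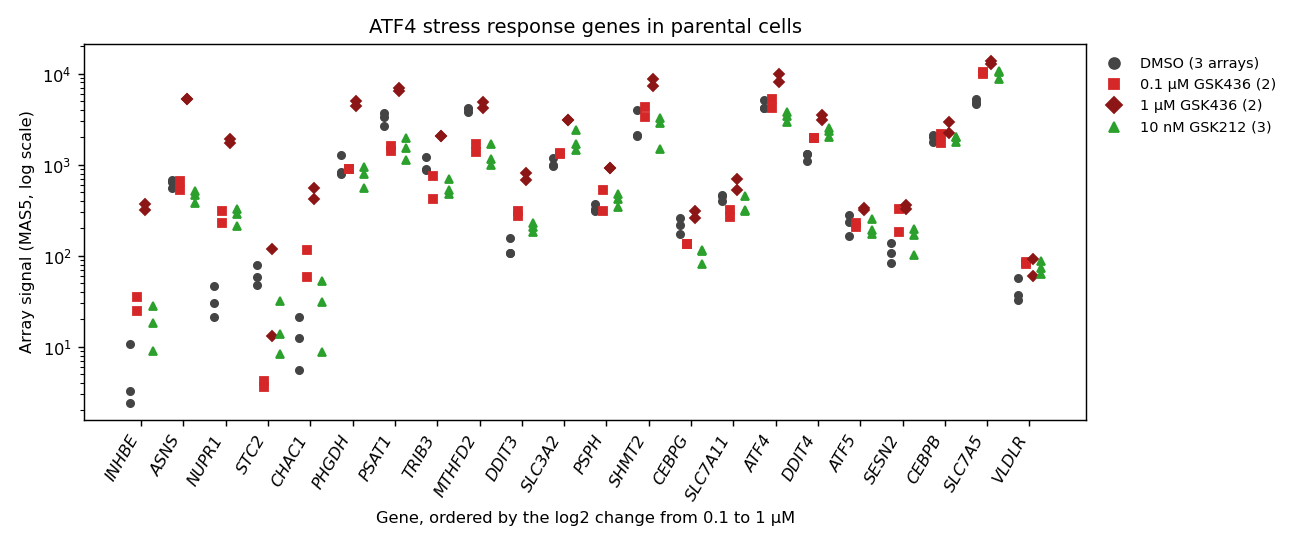
Signals of 22 ATF4 stress response genes on a log axis in parental cells, with 1 point per array for DMSO (3), 0.1 µM GSK436 (2), 1 µM GSK436 (2) and 10 nM GSK212 (3). Both 1 µM points of ASNS, PHGDH and NUPR1 lie above the points of all other groups.

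The MEK inhibitor was compared at its own dose. Between 0.1 µM GSK436 and 10 nM GSK212, 31 genes were called (0.172%), 13 higher (0.0720%) and 18 lower (0.0997%) with GSK436; the GSK212 arrays had actin ratios of 15.4, 32.1 and 5.90. After centring 7 were higher and 156 lower. The doses are of different drugs and are not matched in potency. CD24 had 737 and 797 with GSK436 and 4026, 3957 and 4369 with GSK212, a difference of -2.42 ± 0.19 (limma adjusted p = 5.6e-10). DUSP4 was higher with GSK436, 286 and 196 against 91.8, 44.7 and 50.8 (1.94 ± 0.34), the 1 ERK output gene called between the drugs; the median of that list was 0.85. MEGF6, a protein with EGF-like repeats, had 6.77 and 7.88 with 0.1 µM GSK436, 87.7, 218 and 152 with GSK212 and 98.3 and 157 with 1 µM GSK436, a difference of -3.85 ± 0.33 between the drugs. ATF3, a stress factor, was lower with GSK436 than with GSK212 by 1.66 ± 0.24 on the log2 scale. The count of 31 rested on few arrays: it was 108 without 0.1 µM replicate 3, 67 without GSK212 replicate 1 and 1 in a fit of these groups alone, in which DUSP4, MEGF6 and ATF3 lost their calls. DUSP4 also lost its call without 0.1 µM replicate 2 (1.67), and ATF3 as the mean of all its probe sets (-0.28).

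The same dose was given to the resistant clone. Against its own DMSO arrays limma called 1 gene there (0.00554%), with 784 genes at an unadjusted p under 0.05 of 18063 tested. The difference between the lines in their change with 0.1 µM GSK436 was called for 762 genes (4.22%), 412 with a higher change in parental cells (2.28%) and 350 with a lower one (1.94%); after centring these were 139 and 319. Of the ERK output genes 9 of 14 were called in this test and all had a lower change in parental cells. DUSP6 had 1828 and 1412 with DMSO and 1189.6, 1395 and 1864 with drug in the clone, and the line difference was -4.77 ± 0.91 (limma adjusted p = 9.5e-04). MGP had 0.71 and 1.42 and 3.02, 1.63 and 3.49 in the clone, with a line difference of 7.50 ± 0.77, and SLC2A12 10.9 and 17.4 and 3.11, 16 and 15 (6.40 ± 0.69). Replication genes were called in 13 of 27 cases, all with a lower change in parental cells, among them RRM2 (-1.81 ± 0.21). PPARGC1A fell in parental cells while its signals in the clone were 1.65 and 1.74 with DMSO and 16.1, 33.7 and 13.6 with drug (-4.32 ± 0.94). MYC, SPRY2 and SPRY4 were not called in the line test (-2.06 ± 0.98, -3.46 ± 1.14 and -2.72 ± 1.38). The count of 762 was 412 without resistant DMSO replicate 1, 505 without parental 0.1 µM replicate 2, 1420 without resistant 0.1 µM replicate 3 and 186 in a fit of these groups alone, in which PPARGC1A was not called. The line difference of PPARGC1A was -1.19 as the mean of all its probe sets, not called.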

How the data were processed

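RNA from each of 38 samples was hybridised to a 1-colour expression array. The authors deposited 1 intensity value per probe set and array, a linear MAS5 signal per the submitters' processing notes; no MAS5 version and no step beyond it is given in the sources used here, and detection calls were not used. Trimmed means of 149.84 to 149.96 show that the arrays were scaled alike. Groups came from the sample titles. Of 54675 probe sets, 41097 named 1 gene, 1801 several and 11777 none, per the platform annotation; 41043 of the first matched RefSeq by gene ID. Probe sets above 34.88, the median of all values, on at least 2 arrays were kept (35888), and the brightest on average stood for each of 18063 genes.

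A pseudocount of 2.8, the 10th percentile over the whole matrix, was added before taking log2, and the values were fitted with limma 3.58.1 (R 4.3.3, data.table version 1.17.8), a mean per group, lmFit and eBayes with trend, 24 residual degrees of freedom and Benjamini-Hochberg adjustment over all genes. Fold changes of dim genes are understated on this scale. The fit was tested on simulated data with 200 changed genes. It recovered 45% of log2 changes of 1.5 and 71% of those of 2.5, with 8 false calls. A gene that was not called may therefore still have changed. The simulated treated and DMSO groups differed in those 200 genes alone, with no shift in level, brightness trend or RNA quality. The simulation therefore gives no rate of false calls for the real arrays, which differ in all of these. Control-probe ratios were compared by an exact two-sided permutation test. Figures used Python 3.11.15, pandas 2.3.3, numpy 2.4.6 and matplotlib 3.10.9.

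The groups compared and the 38 gene lists (581 of 646 members measured) were chosen with earlier results of these data known, so a list's direction is not independent evidence. Eligible for naming were list members, the first 20 called genes in each direction whose arrays do not overlap, the first 8 in each direction of the other comparisons, and 5 genes with probe sets called in opposite directions; those printed are a selection of them. Alternatives changed the normalization, pseudocount, filter, probe set rule, moderation, block, RNA quality covariate, array weights and arrays used. With 2 or 3 arrays a group, their number limits the precision.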

Additional observations from a re-analysis of the deposited data

Results flagged for a closer look

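The change with 0.1 µM GSK436 differed between parental cells and the resistant clone for 762 genes by the interaction term of the limma fit, and the first 8 in each direction by the size of that difference are given with RRM2. The change, not the level, was lower in parental cells for DUSP6 (-4.77 on the log2 scale), ETV5 (-4.77), the homeobox gene OTX1 (-4.37) and COL13A1 (-4.37). So it was for the antisense gene SH3PXD2A-AS1 (-4.35), PPARGC1A (-4.32), E2F8 (-4.14), ERICH4 (-4.08) and RRM2 (-1.81). A higher change in parental cells was found for AQP3 (4.93), the metalloprotease MMP19 (5.07), CIMAP1A (5.15) and SCNN1A (5.18). The same held for ALPP (5.33), the membrane oestrogen receptor GPER1 (5.83), SLC2A12 (6.40) and MGP (7.50).

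The parental treated arrays had actin ratios of 37.2 and 37.5 and the resistant ones 4.65, 17.8 and 37.4; the part of RNA quality in these differences was not tested. Leaving out resistant DMSO replicate 1 ended the calls of OTX1 (-4.42), SH3PXD2A-AS1 (-4.59) and SCNN1A (4.31), and leaving out parental 0.1 µM replicate 2 those of OTX1 (-4.22), SH3PXD2A-AS1 (-2.76) and CIMAP1A (4.80). OTX1 was also lost without parental DMSO replicate 2 (-3.88). SH3PXD2A-AS1 lost its call in 7 of the 10 fits with 1 array left out, with the replicate block (-4.06) and with the GAPDH covariate (-4.01). In a fit of only the groups compared OTX1, SH3PXD2A-AS1, PPARGC1A, ERICH4 and SCNN1A were not called. Averaging all probe sets of a gene ended the calls of PPARGC1A (-1.19), CIMAP1A (3.07) and SCNN1A (1.47).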

How the results depend on the processing

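The count of 3251 called genes was 1491 with the actin ratio as a covariate and 1212 with the GAPDH ratio. The 2081 higher calls became 1323 after quantile normalization, 484 after centring, 1369 with a filter at the 75th percentile, 889 with the actin and 683 with the GAPDH covariate; the 1170 lower calls became 3979 after centring, 775 as the mean of all probe sets, 602 with actin and 529 with GAPDH. The 45 dose calls became 101 with actin, 357 with GAPDH and 23 with only the groups compared. The 31 calls between the drugs became 105 after quantile normalization, 163 after centring, 122 with the pseudocount at the median, 19 as the mean of probe sets, 80 with GAPDH, 69 with array weights and 1 with only the groups compared. The 762 line differences became 458 after centring, 464 as the mean of probe sets, 2505 with array weights and 186 with only the groups compared. With 1 array left out in turn the ranges were 1855 to 3816 for all calls, 1070 to 2370 higher, 785 to 1446 lower, 31 to 109 between doses, 21 to 108 between drugs and 412 to 1420 between lines, and the log2 actin ratio difference of 2.38 ranged from 2.06 to 2.76. A group left with 1 array was assumed to vary like the others. The causes were not tested.

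Replicate numbers did not pair the samples: deviations of 48 same-numbered parental pairs correlated between -0.27 and 0.14, with 4 pairs over 0.1. With the replicate number as a block, 3519 genes were called for the main comparison, 43 between doses, 50 between drugs and 743 between lines.

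Of 140 named genes that were called, 132 kept the call after quantile normalization, 120 after centring, 113 with the actin and 94 with the GAPDH covariate, and 120 as the mean of all probe sets. The sign of a called gene turned only for BTG3 (0.075), DDX3X (0.089), EGFR (0.18) and PPARGC1A (0.20) with the mean of all probe sets and for CALR (-0.41) and CSPG4 (-0.15) with the GAPDH covariate, none of them called there; changes that were not called turned sign 95 times. Calls lost with the GAPDH covariate were those of BTG3, BUB1B, CALR, CDK1, CDK2, CDK6, CDKN1C, COL1A1, CRY1, CSPG4, DDX21, DDX3X, DUSP1, DUSP2, ERBB3, ERRFI1, ETV1, GCLM, IFITM1, IGF1R, ITGB1, JUND, KIF11, KIF23, LAMP1, MAD2L1, MAP2K1, MAP2K2, MEGF6, MET, MNT, MYC, NPAS2, PCNA, POLE2, PSAT1, RB1, RRS1, S100B, SFN, SPRED1, TAP2, TFEB, TYMS, WNT5A and ZEB2. No named dose, drug or line difference turned sign. The endothelial list has no value with the filter at the 75th percentile, which left none of its members. Averaging probe sets ended the line differences of PPARGC1A, CIMAP1A and SCNN1A, the dose differences of PSAT1 and MTHFD2 and the drug difference of ATF3. Arrays give no depth; signals near the pseudocount limit the fold changes of dim genes.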

Other observations

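Circadian clock genes changed in both directions with 0.1 µM GSK436: 3 of 14 rose and 2 fell as deposited, beside 11.5% and 6.48% of all genes. After centring 1 was higher and 3 lower, beside 2.68% and 22.0%. NPAS2, which can stand in for CLOCK in the core clock, fell from 367, 349.9 and 295 to 73.5 and 57.3 (-2.32 ± 0.63) and had 66.3 and 59.9 on the low-ratio combination arrays. BHLHE41, a repressor of CLOCK-driven transcription, rose from 29.9, 33.1 and 43.6 to 262 and 275 (2.84 ± 0.41), with 487 and 672 on the combination arrays. Both kept their calls after centring and with the actin covariate, but NPAS2 lost its call with the GAPDH covariate. The partner repressor BHLHE40 rose from 101, 84.2 and 53.7 to 196 and 181 (1.25 ± 0.33) but was not called after centring. CRY1 fell from 508, 524 and 229 to 200.2 and 166 (-1.10 ± 0.34) and was not called with the actin covariate; DMSO replicate 3, with the highest actin ratio of its group, had the lowest DMSO signal. CLOCK (-0.42) and PER2 (0.03) were not called. All arrays come from 1 time point of 24 h. Leaving out 1 array ended the calls of NPAS2 (-2.15 without treated replicate 3), BHLHE40 (1.20 without treated replicate 2) and CRY1 (-0.92 without DMSO replicate 1, -0.90 without DMSO replicate 2, -1.23 without treated replicate 2, -0.97 without treated replicate 3). As the mean of all probe sets, the change of BHLHE41 (1.68) was over 1.5 times smaller but still called.

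Of 11 class II antigen presentation genes 1 rose and 0 fell (limma, with 6 at an unadjusted p under 0.05), beside 11.5% and 6.48% of all genes. After centring 0 were higher and 2 lower, beside 2.68% and 22.0%. HLA-DRA had 463, 566 and 358 with DMSO and 104 and 153 with drug, with no overlap (-1.83 ± 0.76, limma adjusted p = 0.068, not called), although another of its probe sets was called (-2.31). The class II transactivator CIITA was dim with DMSO, at 10.8, 16.4 and 42.2, and had 92.5 and 159 with drug (2.45 ± 0.97, not called). CD74, the class II invariant chain, had 570.2, 622 and 808 and 667 and 785 (0.13 ± 0.30). Among the epithelial markers, SFN, a 14-3-3 protein, rose from 333, 306 and 449 to 1974 and 1373 (2.19 ± 0.33) and KRT15 from 40.6, 23.9 and 32.6 to 134 and 154 (2.09 ± 0.53), the latter not called after centring.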
